A study of Mus musculus with 12 samples.

Results

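The genes described here are 10 enzymes that make serine, carry its one-carbon unit on folate, and make asparagine and proline. They are Phgdh, Psat1 and Psph (serine synthesis), Shmt1, Shmt2, Mthfd1, Mthfd1l and Mthfd2 (folate one-carbon metabolism), Asns (asparagine synthesis) and Pycr1 (proline synthesis). They were chosen by symbol, and each was represented by the probe set annotated to that symbol alone with the highest mean over the 12 arrays. Of the 10, 9 had such a probe set, and all 9 were among the 13180 genes tested out of 19937 with a probe set. Pycr1 was not analysed here by signal.

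RNA came from T-ALL (T cell acute lymphoblastic leukaemia) cells of 1 mouse clone, 483, strain C57BL6. The clone received 100 µM 4EGI-1, a compound that keeps the scaffold eIF4G from binding eIF4E, the protein that holds the mRNA cap, for 2 h, or served as the control. The labels call the controls untreated, whereas the protocol names the solvent DMSO. The 4 groups, each of 3 arrays, were cytoplasmic control, cytoplasmic 4EGI-1, polysomal control and polysomal 4EGI-1. Polysomal RNA was pooled from gradient fractions. The reference is labelled cytoplasmic, but its titles say total and whole cells went into Trizol, so nuclear RNA may be present. Replicates are called biological, without a word on how separate the cultures were, and p-values cover only the spread among these arrays, part of which may be technical.

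Serine is made from the glycolytic intermediate 3-phosphoglycerate by PHGDH, PSAT1 and PSPH in turn. SHMT1 in the cytosol and SHMT2 in mitochondria pass a carbon of serine to tetrahydrofolate, giving glycine. MTHFD2 and MTHFD1L oxidise the folate-bound unit in mitochondria and release formate, which the cytosolic enzyme MTHFD1 puts back on folate for purine and thymidylate synthesis. Proliferating T cells and leukaemias draw on this route, and several of its genes, with Asns, are known targets of the stress transcription factor ATF4.

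Because ATF4 is a known activator of Asns, the RefSeq promoter windows (GRCm38.p6, 250 bases before to 50 after each annotated start) were searched for the core of its composite site, TGATGNAA, which reads TTNCATCA on the other strand. All 10 genes had a window, 11 windows in all, and the letters were present in those of Asns and Pycr1. A window does not always lie at the outer end of its gene. That of Mthfd2 (chr6:83317555-83317854) lies inside the gene, which runs from 83305704 to 83326011. That of Mthfd1 (chr12:76254982-76255281) lies inside a gene that starts at 76254406. Those of Mthfd1l (chr10:3972825-3973124) and Psph (chr5:129787204-129787503) reach past the outer ends of their genes, at 3972892 and 129787443. Their annotated starts still lie inside the genes. Any other start of Mthfd1, Mthfd2, Mthfd1l or Psph was not searched. Of 32851 windows of the same length, 3.97% held the TGATGNAA letters on either strand. Both stretches below lie upstream of the start on the minus strand, with the match in capitals, at chr6:7693210-7693252 for Asns and chr11:120643824-120643871 for Pycr1.
Asns: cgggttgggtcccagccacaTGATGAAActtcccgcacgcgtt
Pycr1: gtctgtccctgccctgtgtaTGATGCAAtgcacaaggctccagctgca
The match in Asns runs from base -23 to -16 counted from the annotated start, and that in Pycr1 from -103 to -96. The E-box CACGTG, the letters bound by MYC and related factors, which read the same on both strands, was in none of the 11 windows (0), against 7.15% of all windows. A match is a description of letters and not a measured site.

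Values are log2 signals after robust multi-array averaging (RMA). The arrays were brought to 1 scale, with medians between 6.40 and 6.56, so a global change in RNA or translation is not measured and each change is measured against the remaining genes of an array. Levels of different genes cannot be compared on this scale. A fall in the number of cells loaded and a fall in RNA per cell cannot be told apart in bulk RNA. The median gene had an SD of 0.133 and 0.121 in cytoplasmic control and 4EGI-1 arrays, against 0.0745 and 0.0761 in the polysomal groups. T cell markers with a probe set numbered 8, and all passed the filter on low signal, a mean of 6.0, with means of 6.61 (Cd5) to 12.1 (Thy1). With 4EGI-1, 3 of the 8 fell in cytoplasmic RNA (Cd27, Cd2 and Cd3e) and 4 in polysomal RNA (these and Cd3d). Of all genes, 7.79% and 12.1% fell. Median changes of the 8 markers were -0.23 and -0.30, and their part in the results below was not tested. The other lists lay near the filter. Means were 4.42 to 6.67 for 4 B cell, 5.28 to 6.74 for 6 myeloid and 5.57 to 7.11 for 4 fibroblast markers, and 6.74 for the 1 erythroid marker, Alas2. Of these, only the myeloid marker Mpo passed with 4EGI-1, higher by 0.34 in cytoplasmic RNA (limma, adjusted p = 0.0176).

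**Figure D1:**
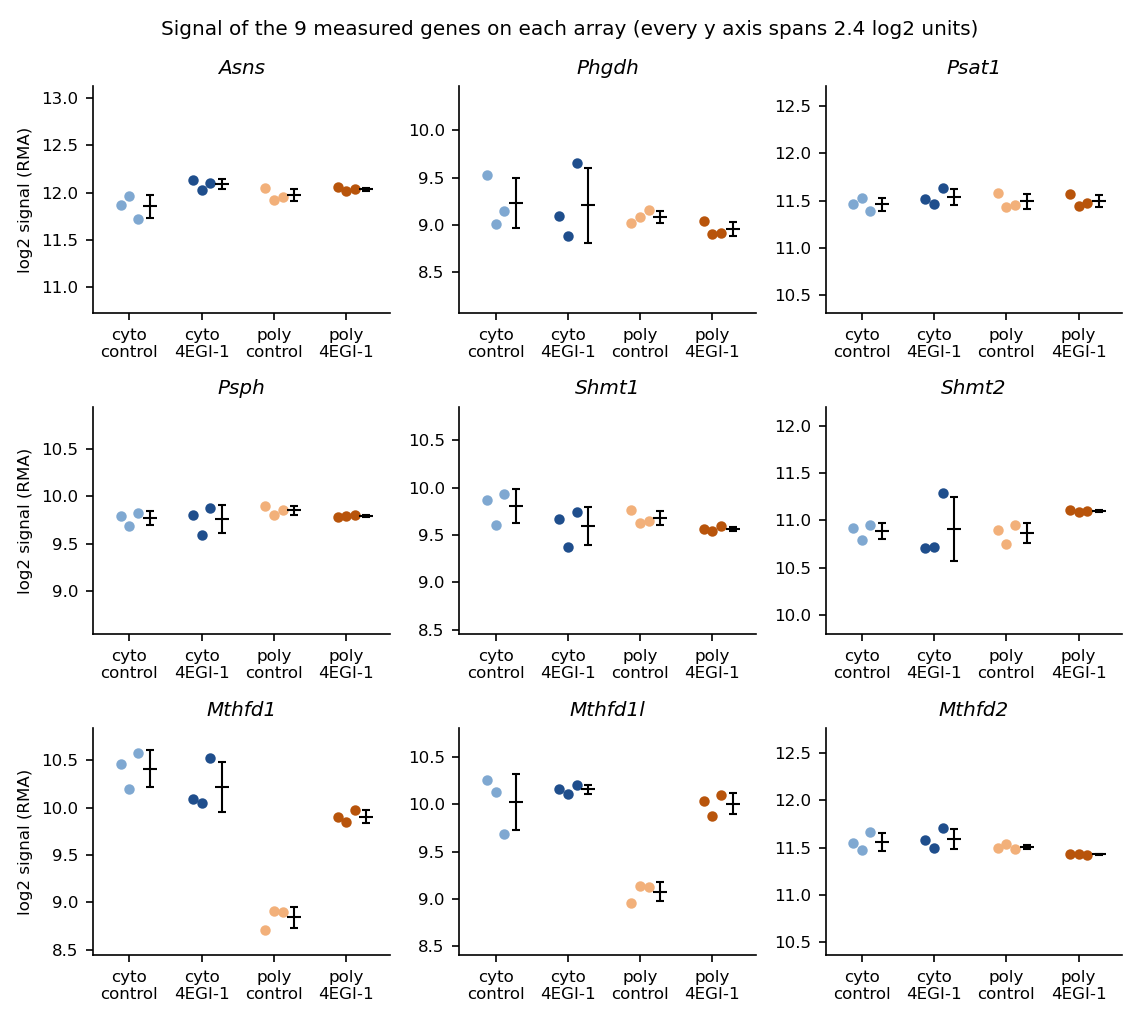
Log2 signal (RMA, y axis) of the 9 measured genes on each array, by group (x axis: cyto, cytoplasmic RNA; poly, polysomal RNA). Points are arrays 1 to 3 from left to right, and the bar is the mean with 1 SD. Mthfd1 and Mthfd1l are lowest on the 3 polysomal control arrays (8.71 to 8.91 and 8.96 to 9.13), and Phgdh spreads most within the cytoplasmic 4EGI-1 group (8.89 to 9.65).

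The main change concerned polysomal RNA of Mthfd1 and Mthfd1l. Both genes were low in polysomes of control cells relative to cytoplasmic RNA, and both rose in polysomes with 4EGI-1, by 2.10-fold and 1.91-fold, while neither passed the test in cytoplasmic RNA. In polysomal RNA 2 of 9 genes rose (Mthfd1 and Mthfd1l) and 0 of 9 fell, whereas 13% of all genes rose and 12.1% fell. In cytoplasmic RNA 0 of 9 rose and 0 of 9 fell, against 10.1% and 7.79% of all genes, at an adjusted p below 0.05 (limma, Benjamini-Hochberg over all genes tested). The unadjusted p was below 0.05 for Asns alone. The median change of the 9 genes was 0.02 in cytoplasmic and 0.005 in polysomal RNA, and that of all genes tested was -0.03 in both.

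Mthfd1 encodes the cytosolic C1-tetrahydrofolate synthase, which interconverts the folate-bound one-carbon units. Its log2 signal was 10.46, 10.20 and 10.58 on cytoplasmic control arrays 1 to 3 and 10.09, 10.05 and 10.53 on the cytoplasmic 4EGI-1 arrays. On the polysomal arrays it was 8.71, 8.91 and 8.90 in control and 9.90, 9.84 and 9.97 with 4EGI-1. The cytoplasmic groups overlapped, and the 3 polysomal 4EGI-1 arrays lay above the 3 polysomal control arrays and below all cytoplasmic ones.

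Polysomal Mthfd1 rose from 8.84 ± 0.11 to 9.91 ± 0.07 (SD, n = 3 arrays), a log2 change of 1.07 ± 0.12 (SE, limma, adjusted p = 1.77e-05) with a 95% confidence interval of 0.80 to 1.33. It ranked 95 of 13180 genes from the top. In cytoplasmic RNA the change was -0.19 ± 0.12, with an interval of -0.46 to 0.08 (limma, adjusted p = 0.334). Without cytoplasmic 4EGI-1 array 3 that value was -0.34 and passed the test (limma, adjusted p = 0.0323).

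Mthfd1l encodes the mitochondrial enzyme that releases formate from formyl-tetrahydrofolate. Its signal was 10.25, 10.13 and 9.69 on the cytoplasmic control arrays and 10.16, 10.11 and 10.20 on the cytoplasmic 4EGI-1 arrays. It was 8.96, 9.13 and 9.13 on polysomal control arrays and 10.04, 9.88 and 10.10 on polysomal 4EGI-1 arrays. Control array 3 was the lowest of the cytoplasmic values, the cytoplasmic groups overlapped, and the polysomal groups did not. The polysomal mean rose from 9.07 ± 0.10 to 10.01 ± 0.11 (SD, n = 3 arrays), a change of 0.93 ± 0.12 (SE, limma, adjusted p = 4.30e-05) with an interval of 0.68 to 1.19. The cytoplasmic change was 0.14 ± 0.12, with an interval of -0.12 to 0.39 (limma, adjusted p = 0.488).

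The difference of effects, polysomal minus cytoplasmic, asks whether polysomal RNA changed beyond the RNA level. It passed for 2 of 9 genes, higher for Mthfd1 and Mthfd1l, and lower for 0 of 9, against 2.31% higher and 0.607% lower among all genes. Those shares are 305 and 80 genes, and leaving out single arrays gave 179 to 411 and 19 to 259. For Mthfd1 it was 1.26 ± 0.18, with an interval of 0.88 to 1.63 (limma, adjusted p = 0.000905), rank 8 of 13180. For Mthfd1l it was 0.80 ± 0.17, with an interval of 0.43 to 1.16 (limma, adjusted p = 0.0183), rank 97. The Mthfd1l call was lost without polysomal control array 1 (limma, adjusted p = 0.0644), polysomal 4EGI-1 array 1 (0.0590) or polysomal 4EGI-1 array 3 (0.0687), with values of 0.74, 0.78 and 0.75. For the other genes adjusted p lay between 0.563 (Asns) and 0.921 (Psph), so no difference between fractions was detectable, and the widest interval, that of Phgdh, ran from -0.59 to 0.37.

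**Figure D2:**
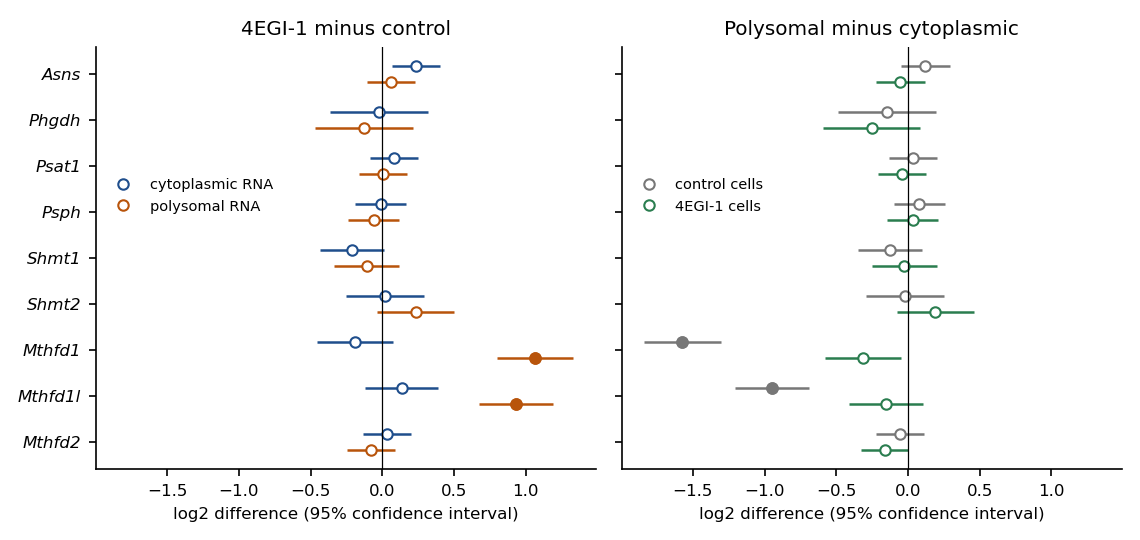
Log2 differences with 95% confidence intervals (x axis) for the 9 genes (y axis), 4EGI-1 minus control on the left and polysomal minus cytoplasmic on the right. Filled points passed at an adjusted p below 0.05. On the left these are the polysomal values of Mthfd1 (1.07) and Mthfd1l (0.93), and on the right their control values (-1.57 and -0.95).

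The fractions were also set against each other within each treatment. In control cells 2 of 9 genes were lower in polysomal than in cytoplasmic RNA (Mthfd1 and Mthfd1l) and 0 of 9 higher, against 12.2% and 16.7% of all genes. With each array centred on its own median the genome-wide split moved from 2205 higher and 1614 lower to 2760 and 933, and both genes still passed. Mthfd1 differed by -1.57 ± 0.12, with an interval of -1.84 to -1.31 (limma, adjusted p = 6.36e-07), which is 2.98-fold lower. Mthfd1l differed by -0.95 ± 0.12, with an interval of -1.21 to -0.69 (limma, adjusted p = 4.52e-05), which is 1.93-fold lower.

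In 4EGI-1 cells neither gene passed, and of the 9 genes 0 were higher and 0 lower, against 9.56% and 7.15% of all genes (2205 higher and 427 lower with median centring, against 1260 and 942). The difference was -0.32 ± 0.12 for Mthfd1, with an interval of -0.58 to -0.05 (limma, adjusted p = 0.0980), and -0.15 ± 0.12 for Mthfd1l, with an interval of -0.41 to 0.10 (limma, adjusted p = 0.420). Replicate numbers were not taken as paired, so polysomal minus cytoplasmic differences between arrays of the same number are a description only. For Mthfd1 they were -1.75, -1.29 and -1.68 in control and -0.19, -0.20 and -0.55 with 4EGI-1. The same differences for Mthfd1l were -1.30, -0.995 and -0.56 in control and -0.13, -0.23 and -0.11 with 4EGI-1. The control comparison shares the polysomal control arrays with the polysomal treatment comparison, the comparison in 4EGI-1 cells shares the polysomal 4EGI-1 arrays with it, and the difference of effects uses all 12, so these values are not separate evidence.

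**Figure D3:**
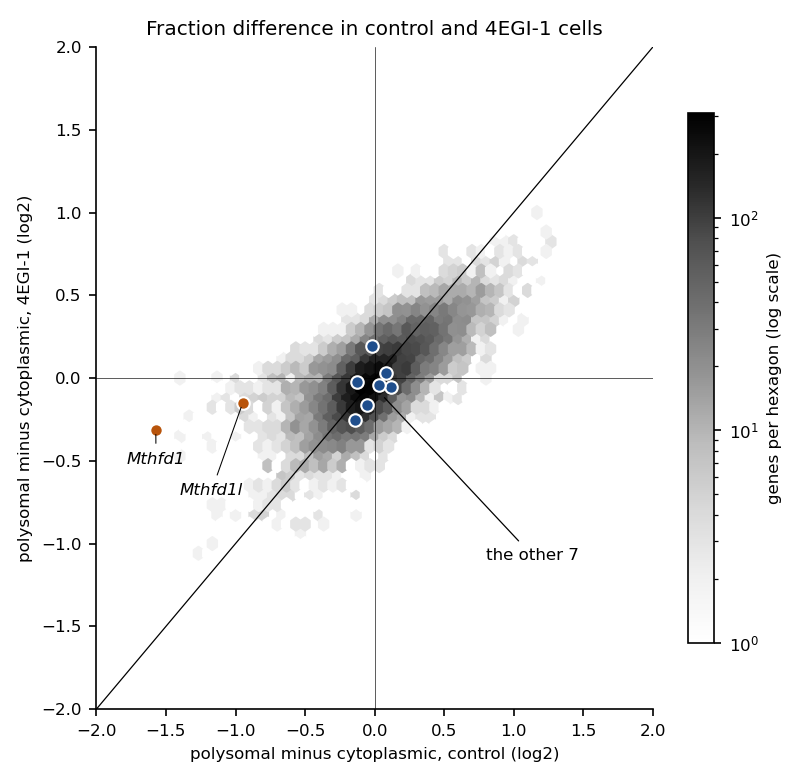
Polysomal minus cytoplasmic log2 signal in control cells (x axis) and 4EGI-1 cells (y axis). Grey hexagons count all 13180 genes tested (log scale), orange points are Mthfd1 and Mthfd1l, blue points are the other 7 genes, and the diagonal marks equal values. Mthfd1 lies at -1.57 and -0.32, and the other 7 lie close to the origin.

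Asns, the glutamine-dependent enzyme that makes asparagine, had signals of 11.87, 11.97 and 11.72 on the cytoplasmic control arrays and 12.13, 12.03 and 12.10 on the cytoplasmic 4EGI-1 arrays. In polysomes it was 12.05, 11.92 and 11.95 in control and 12.05, 12.02 and 12.03 with 4EGI-1. All 3 cytoplasmic 4EGI-1 values lay above the 3 control values, and the polysomal groups overlapped. The cytoplasmic change was 0.24 ± 0.08, a 1.18-fold difference with an interval of 0.07 to 0.40, and it missed the threshold narrowly (limma, adjusted p = 0.0523). It passed in 6 of 23 alternatives (limma, adjusted p from 0.00396 to 0.197 over all of them), among them the fit without cytoplasmic control array 2, where it was 0.29 (limma, adjusted p = 0.0207). The polysomal change was 0.06 ± 0.08 (limma, adjusted p = 0.644). Asns carries the TGATGAAA stretch printed above.

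Shmt2, the mitochondrial hydroxymethyltransferase, had signals of 10.92, 10.79 and 10.95 on cytoplasmic control arrays and 10.70, 10.72 and 11.30 on cytoplasmic 4EGI-1 arrays, of which array 3 was the highest of all 12. On the polysomal arrays it was 10.90, 10.75 and 10.95 in control and 11.11, 11.09 and 11.10 with 4EGI-1. The polysomal groups did not overlap, and the change of 0.23 ± 0.13, with an interval of -0.04 to 0.50, did not pass (limma, adjusted p = 0.212). It passed in a fit of the 6 polysomal arrays alone (limma, adjusted p = 0.0170) and without cytoplasmic 4EGI-1 array 3 (0.0351), with the same value of 0.23. Without that array the polysomal minus cytoplasmic difference in 4EGI-1 cells moved from 0.19 to 0.38 and passed (limma, adjusted p = 0.0105). Shmt1, its cytosolic counterpart, lay between 9.60 and 9.94 in cytoplasmic control and between 9.37 and 9.74 with 4EGI-1, and between 9.63 and 9.76 against 9.55 and 9.59 in polysomes. Its changes were -0.21 ± 0.11 and -0.11 ± 0.11 in the cytoplasmic and polysomal fractions (limma, adjusted p = 0.193 and 0.515). Without cytoplasmic control array 2 the cytoplasmic value was -0.31 and passed (limma, adjusted p = 0.0409).

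Mthfd2, the mitochondrial dehydrogenase and cyclohydrolase that precedes MTHFD1L, passed the test in no comparison. It lay between 11.47 and 11.66 in cytoplasmic control, 11.50 and 11.71 in cytoplasmic 4EGI-1, 11.49 and 11.53 in polysomal control, and 11.42 and 11.44 in polysomal 4EGI-1. The polysomal groups of Mthfd2 did not overlap, nor did those of Psph and Shmt1. The share of all genes without overlap was not counted, so non-overlap is not read as a result for any gene described here. The polysomal change of Mthfd2 was only -0.08 ± 0.08, with an interval of -0.24 to 0.09 (limma, adjusted p = 0.547). The difference of effects of Mthfd2 was -0.11, with an interval of -0.34 to 0.13 (limma, adjusted p = 0.768). A difference between Mthfd2 and Mthfd1l was not tested.

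None of the 3 serine synthesis genes passed in either fraction. Psat1, the aminotransferase, lay between 11.39 and 11.63 on all 12 arrays, with changes of 0.08 ± 0.08 in cytoplasmic and 0.01 ± 0.08 in polysomal RNA (limma, adjusted p = 0.530 and 0.976). Psph, the phosphatase, lay between 9.60 and 9.89 on all 12 arrays, with differences of -0.01 ± 0.08 and -0.06 ± 0.08 (limma, adjusted p = 0.946 and 0.675). Phgdh, the dehydrogenase that opens the route, had an SD of 0.27 in cytoplasmic control and 0.40 in cytoplasmic 4EGI-1 against 0.07 in each polysomal group. Control array 1 (9.53) and 4EGI-1 array 3 (9.65) were its highest values. Its changes were -0.02 ± 0.16 and -0.13 ± 0.16 (limma, adjusted p = 0.947 and 0.630), with intervals of -0.36 to 0.32 and -0.47 to 0.21. The sign of the cytoplasmic value depended on single arrays and on the probe set, since a second probe set annotated to both Phgdh and Gm6756 gave 0.03 and 0.04.

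The genes outside the set whose signal followed a member most closely over the 12 arrays were found by Pearson correlation, as a measure of likeness only, since the arrays fall into groups and share processing. For Asns these were Rmi1 (0.953), Hspa9 (0.939) and Msantd4 (0.939), for Phgdh Gtf2i (0.942), Ywhae (0.935) and Jcad (0.923), and for Mthfd2 Aup1 (0.953), Susd4 (0.952) and Mrrf (0.950). For Mthfd1 they were Ipo5 (0.992), Vcp (0.992) and Dock8 (0.989), and for Mthfd1l Rag1 (0.991), Supt6 (0.988) and Usp9x (0.981), chosen after these members' values were seen. With 4EGI-1 the polysomal changes were 0.43 (Ipo5), 0.67 (Vcp), 1.14 (Dock8), 0.39 (Rag1), 0.84 (Supt6) and 0.51 (Usp9x). The cytoplasmic changes, in the same order, were -0.04, -0.13, -0.04, 0.03, 0.10 and 0.06. These genes were picked for likeness to Mthfd1 or Mthfd1l on the same arrays, so such changes follow from the choice and are not read as support.

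Mthfd1 and Mthfd1l share a wide gene span. From RefSeq start to end, introns included, they cover 65.4 and 194 kb, which puts both in the widest of 5 equal bins of the tested genes. Asns, Phgdh, Psat1, Psph, Shmt1 and Mthfd2 cover 18 to 26.8 kb, in the third bin, and Shmt2 covers 5.32 kb, in the first. Over all genes the share with a higher difference of effects was 0.228%, 0.647%, 1.86%, 3.46% and 5.4% from the narrowest bin to the widest, each of 2628 genes. Transcript length was not analysed here, and the part of span in the result was not tested. The GC content of the first 50 bases after the annotated start was 58% for Mthfd1 and 60% for Mthfd1l, inside the 52% to 72% of all 11 windows and near the median of 56% of all windows. For both Mthfd1 and Mthfd1l this start is that of the window searched above, inside the gene span. Of the 11 windows, only that of Shmt2 began with C and a run of at least 5 pyrimidines (7 in all), as 2.51% of all windows do.

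Among other genes around the folate cycle, transporters included, 12 of 19 listed genes were tested. In cytoplasmic RNA 1 passed as higher and 0 as lower (all genes, 10.1% and 7.79%), and in polysomal RNA 1 as higher and 2 as lower (all genes, 13% and 12.1%), with median changes of -0.003 and -0.04. These shares are near those of all genes. The 1 higher gene in each fraction was Aldh1l2, the mitochondrial formyltetrahydrofolate dehydrogenase, with control means of 5.75 and 5.68 against 6.51 and 6.17 with 4EGI-1. Its control means lay below the filter of 6.0, so it was kept only through the 4EGI-1 groups, and its call is not read as support. Gcsh, a subunit of the glycine cleavage system, fell by 0.58 ± 0.12 in polysomes (limma, adjusted p = 0.00279). Mtfmt, which formylates the mitochondrial initiator tRNA, fell there by 0.39 ± 0.07 (limma, adjusted p = 0.00122). Their differences of effects, -0.56 and -0.20, did not pass (limma, adjusted p = 0.13 and 0.438).

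Of the methionine cycle, into which folate feeds methyl groups, 6 of 9 genes were tested. In cytoplasmic RNA 0 changed (all genes, 10.1% higher and 7.79% lower). In polysomes 1 rose and 0 fell (all genes, 13% and 12.1%), and a difference from these shares was not tested. The gene that rose was Mtr (methionine synthase, the enzyme that takes the methyl group from folate). Mtr had polysomal signals of 8.11, 8.19 and 8.08 in control and 9.09, 9.04 and 9.05 with 4EGI-1. It rose by 0.93 ± 0.09 (limma, adjusted p = 5.07e-06), its cytoplasmic change was 0.13 ± 0.09 (limma, adjusted p = 0.372), and the difference of effects was 0.80 ± 0.13 (limma, adjusted p = 0.00332). As with Mthfd1 and Mthfd1l, control polysomal RNA was lower than cytoplasmic RNA, with a difference of -0.70 ± 0.09 (limma, adjusted p = 7.27e-05). Mtr was named by its polysomal treatment comparison, which shares the polysomal control arrays with this difference. The likeness is therefore not separate evidence.

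Among 12 tested genes of 13 for serine and glycine use and transport, 2 rose and 1 fell in cytoplasmic RNA (all genes, 10.1% and 7.79%) and 3 rose and 1 fell in polysomes (all genes, 13% and 12.1%), and a difference from the shares of all genes was not tested. Slc1a4, a carrier of serine and other neutral amino acids, rose by 0.98 ± 0.12 in cytoplasmic and by 1.05 ± 0.12 in polysomal RNA (limma, adjusted p = 3.88e-05 and 1.08e-05). Sfxn1, the mitochondrial serine carrier that supplies SHMT2, fell by 0.93 ± 0.11 (limma, adjusted p = 3.99e-05) and by 0.92 ± 0.11 (2.16e-05). Sfxn1 signals ran from 11.17 to 11.68 in cytoplasmic control and from 10.34 to 10.61 with 4EGI-1. In polysomes they ran from 11.11 to 11.16 in control and from 10.17 to 10.25 with 4EGI-1. Serinc1 rose in both fractions, by 0.57 ± 0.11 and 0.36 ± 0.11 (limma, adjusted p = 0.00178 and 0.0193), the polysomal call being lost without polysomal control array 2 (0.0972) or 4EGI-1 array 1 (0.0870). Slc38a2, a neutral amino acid transporter, rose in polysomes by 0.45 ± 0.09 (limma, adjusted p = 0.00160). The Slc38a2 difference of effects, 0.39 ± 0.13, did not pass (limma, adjusted p = 0.144).

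Among 15 tested genes of 17 for asparagine, aspartate, glutamate and proline, 2 rose and 2 fell in cytoplasmic RNA (all genes, 10.1% and 7.79%) and 2 rose and 0 fell in polysomes (all genes, 13% and 12.1%), shares near those of all genes. The cytoplasmic ones were Asrgl1 (0.37) and Nars (0.27), which rose, and Aldh4a1 (-0.29) and Bcat2 (-0.53), which fell, and none of these 4 passed in the 6 cytoplasmic arrays alone (limma, adjusted p = 0.0888, 0.179, 0.121 and 0.143). In polysomes Aldh18a1, which makes the proline precursor, rose by 0.54 ± 0.15 (limma, adjusted p = 0.0140), and Bcat1, a branched-chain aminotransferase, by 0.27 ± 0.08 (0.0197). The difference of effects passed for neither gene (limma, adjusted p = 0.539 and 0.602). Aldh18a1 lost its call without polysomal 4EGI-1 array 3 (limma, adjusted p = 0.0563), and Bcat1 without that array (0.0925) or polysomal control array 2 (0.0611) or 3 (0.0694), and with each array centred on its median (0.0532).

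Most measured ATF4 targets outside these enzymes rose in both fractions. Of 17 tested genes of 20, 13 rose and 0 fell in cytoplasmic RNA (all genes, 10.1% and 7.79%). In polysomal RNA 13 rose and 0 fell (all genes, 13% and 12.1%). Median changes were 0.61 and 0.74, and a difference from the shares of all genes was not tested. Slc7a11, the cystine transporter, rose by 1.12 ± 0.09 and 1.17 ± 0.09 (limma, adjusted p = 1.03e-06 and 3.82e-07), Chac1, which degrades glutathione, by 1.34 ± 0.14 and 1.00 ± 0.14 (1.42e-05 and 0.000105), and Ddit3, which encodes CHOP, by 0.87 ± 0.09 and 0.86 ± 0.09 (1.34e-05 and 7.09e-06). In polysomes Slc7a3, a carrier of cationic amino acids, rose by 0.94 ± 0.08 and Herpud1, a factor of endoplasmic reticulum protein degradation, by 1.11 ± 0.12 (limma, adjusted p = 1.77e-06 and 7.00e-06). Slc7a3 was the 1 gene of this list whose difference of effects passed, at 0.57 ± 0.12 (limma, adjusted p = 0.0167), a call lost without polysomal control array 2 (0.0622) or polysomal 4EGI-1 array 1 (0.0536) or 3 (0.0539). Atf4 itself rose in polysomes by 0.41 ± 0.08 (limma, adjusted p = 0.00143) and had a cytoplasmic change of 0.22 ± 0.08 (limma, adjusted p = 0.0817). The Atf4 difference of effects was 0.20 ± 0.11 and did not pass (limma, adjusted p = 0.497), so no difference between fractions was detectable. Myc, a known activator of serine and one-carbon genes, had differences of -0.12 ± 0.13 and 0.22 ± 0.13 (limma, adjusted p = 0.579 and 0.268). Among the members, by comparison, 0 of 9 passed in cytoplasmic RNA, with Asns narrowly missing (limma, adjusted p = 0.0523). Members and lists were chosen with earlier results of these data known, and this difference between lists was not tested.

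**Figure D4:**
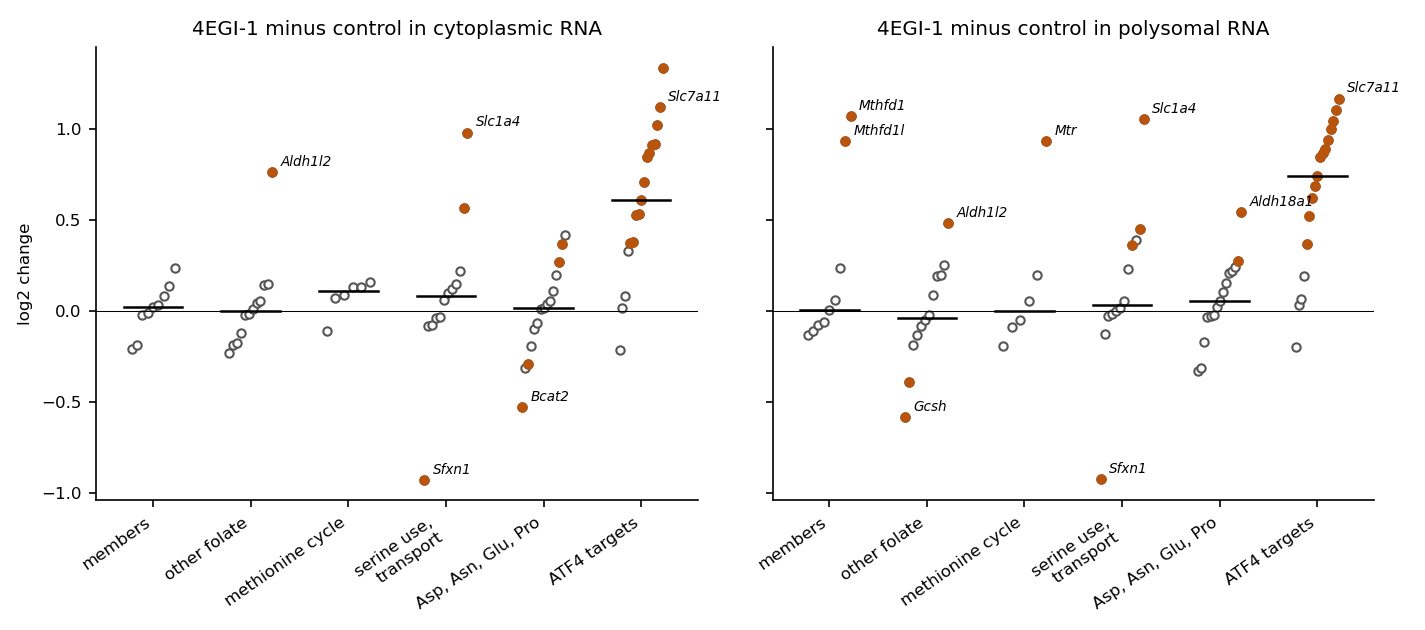
Log2 change with 4EGI-1 (y axis) of each tested gene in the members and in 5 related lists (x axis), in cytoplasmic (left) and polysomal RNA (right). Filled points passed at an adjusted p below 0.05 and black lines are medians. Of the ATF4 targets, 13 of 17 rose in each fraction, against 10.1% (cytoplasmic) and 13% (polysomal) of all genes. Their medians were 0.61 and 0.74, against 0.02 and 0.005 for the members, and this difference was not tested.

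Malat1, a nuclear RNA, had means of 11.0 ± 0.45 and 11.6 ± 0.36 on cytoplasmic control and 4EGI-1 arrays and of 10.5 ± 0.08 and 10.2 ± 0.09 on polysomal ones (SD, n = 3 arrays). Its polysomal minus cytoplasmic difference was -1.32 ± 0.19 in 4EGI-1 cells (limma, adjusted p = 0.000505) and -0.51 ± 0.19 in control cells (limma, adjusted p = 0.0563). What nuclear RNA in the reference contributes to these results was not tested.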

How the data were processed

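Per the submitters' processing notes, the authors made the deposited values with RMA, which gives 1 log2 value for each of 34760 probe sets and array. The sources used here give neither its version nor whether normalisation covered all arrays jointly. RNA was amplified and biotin-labelled with NuGEN kits, per the labels' protocols. Gene names came from GEO's platform annotation, possibly outdated (21640 with 1 symbol, 1321 with several, 11799 with none), with symbols updated through the RefSeq table of GRCm38.p6 (19855 of 19937 matched). Each gene was represented by the probe set of highest mean, and only genes whose mean reached the 40th percentile of all probe sets (6.0) were kept. Group means over 12 arrays were fitted with limma 3.58.1 in R 4.3.3 (lmFit, eBayes), with Benjamini-Hochberg adjustment over 13180 genes and a threshold of 0.05. Errors beside changes are standard errors from a spread per gene that all 4 groups share. They are therefore not the spread of the fraction named, and the median gene varied less on polysomal than on cytoplasmic arrays. The number of arrays limits the precision. The code was tested on simulated data.

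Named are all members, up to 3 genes per related list, direction and treatment comparison by p-value, Atf4 and Myc, and the 3 genes most like Asns, Phgdh and Mthfd2. The genes most like Mthfd1 and Mthfd1l, and the marker genes, were named after their values were seen. Members and lists were chosen with earlier results of these data known. Alternatives were other normalisation, filters, probe set rules, variance models, blocks and leaving out each array.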

Additional observations from a re-analysis of the deposited data

Results flagged for a closer look

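The effect of 4EGI-1 differed between the fractions for 2 genes by the interaction test. For Mthfd1 the polysomal effect exceeded the cytoplasmic effect by 1.26 on the log2 scale (limma, adjusted p = 0.000905), and it passed in 21 of 21 alternatives. For Mthfd1l the excess was 0.80 (limma, adjusted p = 0.0183), and it passed in 18 of 21. Groups of 3 arrays were not searched for outlying arrays.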

How the results depend on the processing

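The polysomal rise of Mthfd1 (1.00 to 1.10) and Mthfd1l (0.87 to 0.99) and their lower polysomal signal in control cells (-1.68 to -1.49 and -1.12 to -0.83) passed in 23 of 23 alternatives. The number of members higher in cytoplasmic RNA went from 0 to 1, which was Asns, with quantile normalization (limma, adjusted p = 0.0363), a filter at the 60th percentile (0.0372), a robust trend (0.0145), array weights (0.00396) and the replicate block (0.0487), and from 0 to 1 when single arrays were left out. Members lower there went from 0 to 3 with array weights (Phgdh, Shmt1 and Mthfd1) and from 0 to 1 without single arrays. Members higher in the difference of effects lay between 1 and 2 without single arrays and rose from 2 to 3 with array weights (Shmt2, 0.39, limma, adjusted p = 0.0257). Array weights also took members higher in polysomal RNA from 2 to 3 (Shmt2, 0.22, 0.0361) and members lower in control polysomes from 2 to 3 (Phgdh, -0.34, 0.0146). In 4EGI-1 cells, members higher in polysomes went from 0 to 1 with array weights (Shmt2) and from 0 to 1 without single arrays, and members lower from 0 to 1 with array weights (Mthfd2) and to 1 with the replicate block (Mthfd1, -0.32, limma, adjusted p = 0.0409). Phgdh changed sign without single arrays, from -0.24 to 0.14 in cytoplasmic RNA and from -0.25 to 0.0035 between fractions in control cells, and by its other probe set, chosen after seeing the data, to 0.0332, 0.04 and 0.0068 in cytoplasmic RNA, polysomal RNA and the difference. The causes were not tested. Same-numbered arrays correlated at -0.22 to 0.56 in their deviations from the group means, so the replicate numbers were not taken as paired, and over 12 arrays the replicate block changed no other call of a member. In the 6 polysomal arrays alone Shmt2 passed with the replicate block (limma, adjusted p = 0.0201) and without it (0.0170). Over all genes, fitting only the 6 arrays compared gave 731 higher and 369 lower in cytoplasmic RNA and 2346 and 2685 in polysomal RNA, against 1325 and 1027, and 1717 and 1599. Array weights gave 2890 and 2667 in cytoplasmic RNA and 2410 and 2750 in polysomal RNA. In the difference of effects they gave 1147 and 1691, against 305 and 80. Between fractions they gave 3209 and 2845 in control cells and 2300 and 2372 in 4EGI-1 cells, against 2205 and 1614, and 1260 and 942. Genes higher in cytoplasmic RNA numbered 1427 with quantile normalization, 1359 with the robust trend and 1462 with the replicate block. The filter at the 60th percentile left 8848 genes, of which 1152 were higher there. The replicate block gave 1140 lower between fractions in 4EGI-1 cells. Without single arrays, the cytoplasmic counts lay between 869 and 1505 higher and 588 and 1622 lower, and those between fractions in 4EGI-1 cells between 549 and 1505 higher and 497 and 1143 lower.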

Other observations

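The kinases that phosphorylate eIF2α, upstream of ATF4, and the antioxidant factor NRF2, a known regulator of serine synthesis genes, were measured with Atf4 and Myc as a list of 7 regulators. In cytoplasmic RNA 2 rose (Eif2ak3 and Nfe2l2) and 1 fell (Eif2ak2), against 10.1% and 7.79% of all genes. In polysomal RNA 3 rose (Eif2ak3, Nfe2l2 and Atf4) and 0 fell, against 13% and 12.1% of all genes. A difference from these shares was not tested. Eif2ak3, which encodes PERK, the kinase of the endoplasmic reticulum, rose by 0.73 ± 0.10 and 0.77 ± 0.10 (limma, adjusted p = 0.000131 and 4.21e-05). Nfe2l2, which encodes NRF2, rose by 0.66 ± 0.07 in polysomes (limma, adjusted p = 1.18e-05). Its cytoplasmic rise of 0.23 (limma, adjusted p = 0.0426) passed in 7 of 23 alternatives, and the cytoplasmic fall of Eif2ak2 by 0.29 (limma, adjusted p = 0.0392) in 12 of 23. The Nfe2l2 difference of effects was 0.43 (limma, adjusted p = 0.0368) and passed in 10 of 21.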
